A study of Macaca fascicularis with 28 samples.

Results

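The solute carriers (SLC) are the membrane proteins that move ions, amino acids, sugars, metals, nucleosides and metabolites across the plasma membrane and the membranes of organelles, and they are described here in the taste buds and lingual epithelium (LE) of cynomolgus macaques. The genes were chosen by name and by level: every gene whose symbol starts with SLC and a family number was taken if at least 1 of its probe sets reached an intensity of 25 units in 4 or more of the 28 samples. The vesicular and serotonin carriers SLC6A4, SLC17A9, SLC18A1 and SLC18A2 were left aside by name. A total of 202 genes of 47 families met the rule, of 285 solute carrier genes named on the array and of 11495 gene symbols that reached the same level among 14873 symbols in all. Each gene is represented by its brightest probe set, by mean log2 intensity, and 103 genes have several. In 3 cases the symbol is not that of a carrier: SLC2A4RG encodes a transcription factor, and SLC67A1-AS and SLC7A6OS are transcribed from the strand opposite a carrier gene.

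The rule used measured levels, so that being detected is no result for these genes. Of the 202 members, 72 reached 25 units in all 28 samples, 12 reached it in no LE sample and 8 in no taste bud sample. Just inside the rule lay 8 members with exactly 4 samples, among them SLC10A4 with a highest value of 94.0 units and SLC38A7 with 46.7. Just outside lay 6 genes with 3 samples, among them SLC6A15 with a highest value of 186 and SLC38A3 with 48.3.

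Carriers of this superfamily have no shared fold or mechanism. The cation-chloride cotransporters, bicarbonate exchangers and sodium-proton exchangers set the chloride concentration, pH and volume of a cell, and in epithelia they run on the sodium gradient kept up by the sodium pump. Taste buds are clusters of receptor and support cells that are continuously renewed and face saliva at the taste pore, and glutamate, acids, salts and sugars are all both taste stimuli and substrates of carriers. LE is a stratified, keratinizing epithelium without taste buds.

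The samples came from laser capture of frozen tongue sections from female and male animals aged 2.6 to 4.5 years, with tissue from many sections pooled into 1 sample per animal and tissue. In the first array set, taste buds of circumvallate (CV) papillae, called CV buds here, and adjacent LE came from animals 1, 3, 4 and 5, and taste buds of fungiform (FG) papillae, called FG buds, and adjacent LE from animals 1 to 6. In the second set, the top and the bottom fraction of CV buds came from animals 7 to 10. Between 37.3% and 40.8% of probe sets reached 25 units on each array, and no array stood apart by this share. Marker sums of other cells, given below, varied more between samples. All 10 keratinocyte markers on a list were lower in both kinds of taste bud than in LE, and 5 of 6 tested taste cell markers were higher in both. The other one, ENTPD2, an enzyme of type I taste cells, was not called in CV and was lower in FG buds. Of these markers, GNAT3 reached 25 units in taste buds alone, and IVL and TMPRSS11E did so in LE alone. The calls of these genes are a description. A captured sample mixes cell types, so that fewer cells expressing a gene and less RNA per cell cannot be told apart.

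A gene was called when its p, adjusted over all probe sets, did not exceed 0.05 in a linear model (limma) with the animal as a block. For 22 members the solute carrier name of the probe set comes from the study's own list of taste bud genes, which was selected on the difference between taste buds, or fractions of CV buds, and LE in these samples. Their values against LE are given as a description without a test. Linear folds below compare geometric means with values under 25 units raised to 25. They are written "at least" where this raised values of the dimmer group and the ratio of the arithmetic means was no smaller, and where it raised values without giving such a bound the log2 change of the measured values is given instead.

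**Figure D1:**
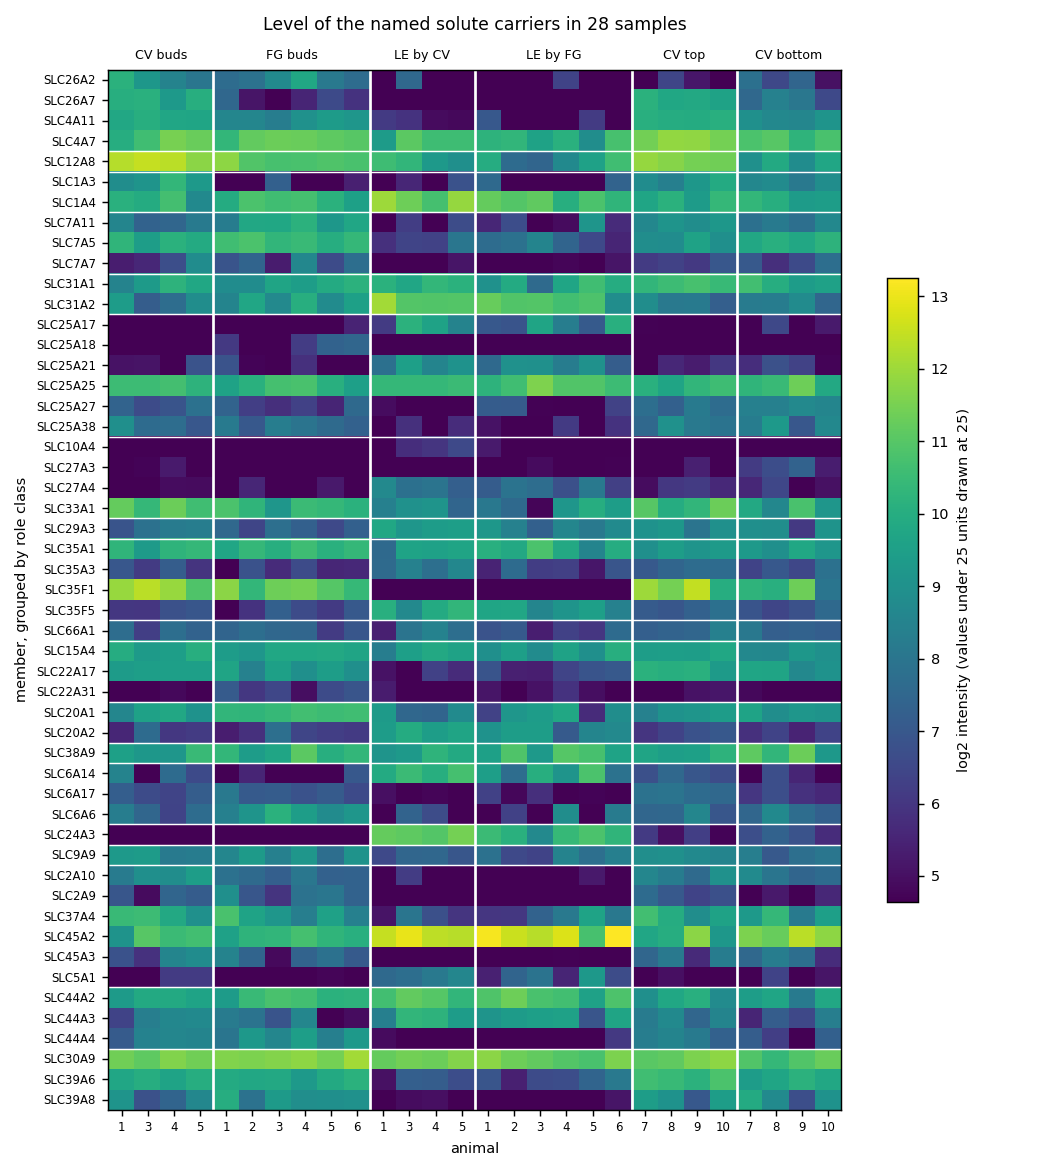
Level of the 51 members named by rule in each of the 28 samples (columns, numbered by animal within the 6 conditions), as log2 intensity with values under 25 units drawn at 25; white lines separate conditions and role classes. SLC35F1 and SLC26A7 are drawn at 25 in all 10 LE samples, and SLC24A3 is drawn at 25 in all 10 whole taste bud samples.

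Against adjacent LE, 35 of 174 tested members were higher in CV buds and 26 were lower, and 113 were not called. Over all 26176 probe sets tested, 17.3% were called higher and 18.0% lower, beside 20.1% and 14.9% of the members. In FG buds 43 members were higher and 38 lower, or 24.7% and 21.8%, where 21.1% and 20.2% of all probe sets were called. The median log2 change of the tested members was 0.10 in CV and -0.06 in FG buds, and that of all probe sets -0.08 and 0.05. The shares lie near those of the array as a whole, so that no result about carriers as a group is read from them, and the account below is of single carriers and families.

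Of the 35 members higher in CV buds, 27 (77.1%) were also among the 43 higher in FG buds (62.8% of these), and of the 26 lower in CV, 20 (76.9%) were among the 38 lower in FG (52.6%). Over all probe sets the same shares were 70.0% and 57.5% for those higher, and 61.6% and 55.0% for those lower. Both comparisons drew on the same animals in part and both were made against LE, and nothing about carriers is read from these shares. No member was called in opposite directions. Several families held members that rose and members that fell: 11 families did so in CV and 13 in FG buds, 9 of them the same. Some calls were small or dim. The fold was under 1.5 with values raised to 25 for 3 of the 61 calls in CV and 11 of the 81 in FG buds, and 2 calls in each had both group means under 25 units. Some called members reached 25 units only in the tissue where they were higher, among the 20 samples of taste buds and LE, and so entered the test through that tissue alone: 2 of the 35 higher and 8 of the 26 lower in CV buds, and 3 of the 43 higher and 7 of the 38 lower in FG buds. For calls of members with other probe sets, at least 1 of these changed with the opposite sign in 9 of 21 cases in CV and 11 of 23 in FG buds, so that a call describes the probe set that represents the gene.

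**Figure D2:**
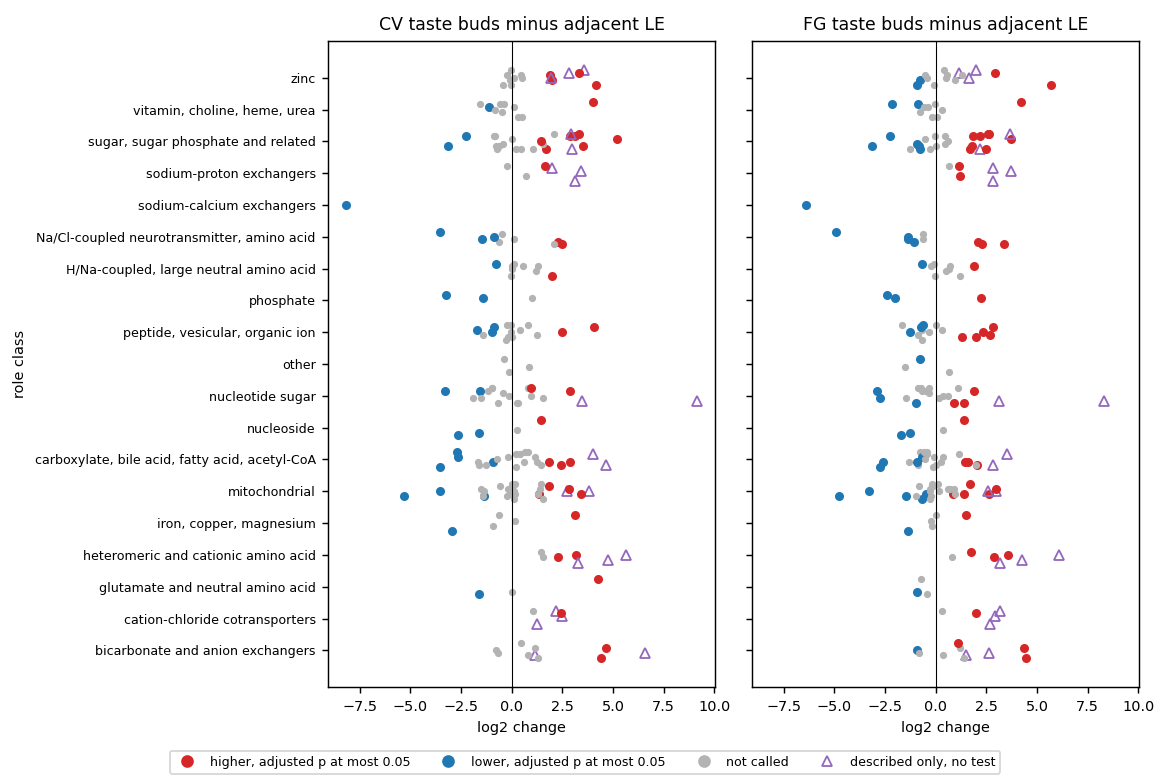
Log2 change of each member between taste buds and adjacent LE by role class, in CV (left) and FG (right) taste buds, 1 symbol per member. Red and blue points are members called higher and lower, grey points were not called, and open triangles are the 22 members given as a description only, all of which lie above 0.

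Among anion and bicarbonate carriers, SLC4A11, a membrane protein of the bicarbonate transporter family that conducts protons and water, and SLC26A2, a sulfate and chloride exchanger, rose in both kinds of taste bud. SLC4A11 had 900.5, 1059, 849 and 842 units in CV buds of animals 1, 3, 4 and 5, and 68.6, 59.8, 29.9 and 28.5 in their LE. FG buds ran from 314 to 659 units (median 452) and their LE from 5.92 to 131 units (median 12.3), so that no taste bud sample overlapped LE. The log2 change, given with its standard error (SE) here and below, was 4.39 ± 0.71 in CV (adjusted p = 0.000344) and 4.48 ± 0.58 in FG buds (adjusted p = 4.93e-05). SLC26A2 had 1136, 596, 357.5 and 259.8 units in CV buds against 7.33, 188, 18.3 and 6.15 in LE, where animal 3 was the highest. It rose in CV buds (log2 change 4.66 ± 0.82, adjusted p = 0.000613) and was at least 10.5-fold higher in FG buds (adjusted p = 0.000197).

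The sodium bicarbonate cotransporter SLC4A7 shows how much the probe set matters. Its brightest probe set was not called in CV buds (log2 change 0.44 ± 0.40, adjusted p = 0.419) and rose 2.12-fold in FG buds (adjusted p = 0.0177, lost without animal 3, 4 or 5). Of its 4 other probe sets, 3 were higher in CV buds by log2 changes of 2.99, 3.89 and 5.65, and 1 was lower by a log2 change of -1.86. SLC26A7, a chloride and bicarbonate exchanger of gastric parietal cells and the kidney, is among the members described without a test against LE and is treated with the comparison of papillae below.

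Members of the cation-chloride family, which couple sodium, potassium and chloride, included 1 call among 2 tested and 3 described without a test. Across all probe sets, 17.3% were called higher in CV and 21.1% in FG buds. SLC12A8, whose substrate in this family is disputed, was tested and rose in both: 5084, 5833, 5274 and 3442 units in CV buds against 1532, 1282, 625 and 488 in adjacent LE (5.47-fold, adjusted p = 0.00293), and 3.96-fold in FG buds (adjusted p = 0.00288). The sodium-potassium-chloride cotransporter SLC12A2 averaged 230.3 ± 76.1 units (SD, n = 4) in CV buds and 53.7 ± 27.2 (SD, n = 4) in LE. The potassium-chloride cotransporter SLC12A7 averaged 914 ± 243 (SD, n = 4) and 216 ± 214 (SD, n = 4). SLC12A9 was not called (log2 changes 1.05 ± 0.42 and 0.31 ± 0.34). SLC12A2, SLC12A7 and SLC12A4 are described only, and the array's own annotation gives the probe sets of SLC12A2 and SLC12A4 other or additional genes, LRRC74B and LCAT. Of the 6 WNK and SPAK-type kinases that act on these cotransporters, OXSR1 and STK39 were lower in both kinds of taste bud, and WNK2 was lower in FG buds. OXSR1 had a mean of 191 units in CV buds and 1938 in their LE (log2 change -3.48, adjusted p = 4.97e-05). WNK3 averaged 140 ± 187 units in CV buds and 7.60 ± 1.71 in their LE (SD, n = 4 each), and 7.91 in LE beside FG papillae. It met the filter of the fit through taste buds alone, so its values are a description and its test is not given.

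SLC24A3, a sodium-calcium-potassium exchanger, was far higher in LE than in whole taste buds. Levels were 2361, 2247, 1978 and 2813 units in LE beside CV papillae and 5.42, 5.46, 17.7 and 7.66 in CV buds of the same animals. LE beside FG papillae ran from 411 to 1808 units (median 1306), and FG buds from 9.02 to 24.9 units (median 12.7). No whole taste bud sample reached 25 units, so that the gene met the filter of the fit through LE alone. These values are therefore a description, and the test against LE is not given. The level in LE was at least 93.2-fold higher than in CV (log2 change -8.19) and at least 45.0-fold higher than in FG buds. The fractions of CV buds, from other animals and the other array set, had 69.0, 31.8, 75.0 and 26.6 units at the top and 104, 163, 114 and 53.9 at the bottom, a difference that was not called (adjusted p = 0.156).

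Of the 3 tested sodium-proton exchangers, 1 rose in CV and 2 rose in FG buds, and none fell. SLC9A5, 1 of the 2 in FG buds, reached 25 units in taste buds alone, so its call is a description. Among all probe sets, 17.3% were called higher and 18.0% lower in CV, and 21.1% and 20.2% in FG buds. SLC9A9, an endosomal exchanger, rose 3.13-fold in CV (adjusted p = 0.0214, lost without animal 1 or 5) and 2.22-fold in FG buds (adjusted p = 0.0384, lost without any of animals 1 to 4). The apical exchanger SLC9A3 and the Golgi exchanger SLC9A7 are described only, with means of 268 ± 105 and 187 ± 98.1 units (SD, n = 4) in CV buds and log2 changes over LE of 3.12 and 3.43. A dim probe set annotated as SLC9A3 was not called in CV (log2 change -0.67, adjusted p = 0.0637) and was lower in FG buds (-1.08, adjusted p = 0.0016). Another SLC9A3 probe set was not called in either (-0.43 and 0.31). A dim second SLC9A7 probe set was not called in CV (0.51) and was higher in FG buds (1.41, adjusted p = 0.0138). On a list of sodium pump subunits and carrier chaperones, FXYD6, a pump regulator, rose from a mean of 18.7 to 1403 units in CV buds (log2 change 6.25, adjusted p = 1.64e-07) and from 33.2 to 2030 in FG buds, and ATP1B1, the beta subunit, rose less (log2 changes 0.69 and 0.63). FXYD2 was lower in both.

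Amino acid carriers were called in both directions, also within the SLC1 and SLC6 families. Of the glutamate and neutral amino acid carriers, SLC1A3, the glial glutamate and aspartate carrier, rose in CV buds (log2 change 4.24 ± 0.93, adjusted p = 0.00306) and was not called in FG buds (log2 change -0.73 ± 0.76, adjusted p = 0.462). The neutral amino acid exchanger SLC1A4 was lower in CV buds (1106, 983, 1642 and 423 units against 4056, 2617, 1666 and 3774, adjusted p = 0.00941), a call that was lost without animal 5 (adjusted p = 0.0953).

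None of the 4 tested members of the SLC7 family was lower in taste buds, where 18.0% of all probe sets were called lower in CV and 20.2% in FG buds. SLC7A11, which exchanges cystine for glutamate, had 374, 164, 180.4 and 289 units in CV buds against 6.20, 74.3, 11.4 and 99.3 in LE, and FG buds ran from 305 to 1168 units (median 873) and LE from 13.4 to 560.3 units (median 49.8). The rise was called in CV (adjusted p = 0.0142, lost without animal 1 or 4) and FG buds (adjusted p = 0.00184). SLC7A7, the light chain of a cationic and neutral amino acid exchanger, rose at least 3.60-fold and at least 5.12-fold (adjusted p = 0.0129 and 0.000771). The cationic amino acid carrier SLC7A1 and the large neutral amino acid carriers SLC7A5 and SLC7A6 carry names from the study's list. SLC7A1 averaged 1748 ± 797 units (SD, n = 4) in CV buds and 36.1 ± 19.9 (SD, n = 4) in LE, and SLC7A5 averaged 1002 ± 239 and 122 ± 95.0 (SD, n = 4 each). A dim second probe set, annotated as SLC7A5, averaged 19.6 units in CV buds and 27.2 in their LE. It was not called in CV or FG buds (log2 changes -0.33 and -0.68, adjusted p = 0.482 and 0.0675 in limma).

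The sodium- and chloride-coupled SLC6 family moved both ways. SLC6A14, which takes up neutral and cationic amino acids in mucosal epithelia, fell in both kinds of taste bud. LE beside CV papillae had 959, 1473, 1060 and 1682 units and CV buds 359, 20.1, 201 and 96.5, without overlap. LE beside FG papillae ran from 210.5 to 1789 units (median 631), and FG buds from 6.29 to 128 units (median 12.8). The log2 change was -3.53 ± 1.03 in CV (adjusted p = 0.0161, lost without animal 3, 4 or 5) and -4.94 ± 0.84 in FG buds (adjusted p = 0.000462). SLC6A17, a synaptic vesicle carrier of neutral amino acids, rose in both, at least 4.29-fold in CV (adjusted p = 0.00011) and by a log2 change of 2.08 ± 0.26 in FG buds (adjusted p = 3.86e-05). The taurine carrier SLC6A6 rose in FG buds, where it ran from 335 to 1129 units (median 560.4) and LE from 11.6 to 470.2 units (median 48.5) (adjusted p = 0.00698), and the groups overlapped. In CV buds it was not called (log2 change 2.07 ± 1.05, adjusted p = 0.141).

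Of 21 tested members of the sugar and related class, 7 were higher and 2 lower in CV buds, where 17.3% and 18.0% of all probe sets were called. In FG buds 8 were higher and 5 lower, where 21.1% and 20.2% of all probe sets were called. The class goes by family number, so those higher in each include SLC2A4RG, which is not a carrier. Other probe sets of SLC2A4RG had log2 changes of -0.85 and -1.48 in CV and -1.18 and -1.51 in FG buds. SLC2A10, a facilitative carrier of glucose and dehydroascorbate, had 298, 489, 471 and 695.5 units in CV buds against 4.32, 71.6, 20.9 and 3.86 in LE. In FG buds it ran from 153 to 267.5 units (median 181) and LE from 5.93 to 37.4 units (median 17.6). CV buds exceeded LE at least 14.4-fold (log2 change 5.22 ± 0.76, adjusted p = 0.000142) and FG buds at least 7.17-fold (adjusted p = 0.000424). SLC37A4, the glucose-6-phosphate carrier of the endoplasmic reticulum, rose 11.4-fold in CV buds (adjusted p = 0.00471). SLC45A3, a sugar carrier known from prostate, rose at least 7.31-fold in CV (adjusted p = 0.00057) and at least 5.76-fold in FG buds (adjusted p = 0.000685).

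The sodium-glucose cotransporter SLC5A1 went the other way. It had 192, 215, 281 and 387.5 units in LE beside CV papillae and 16.0, 9.33, 70.0 and 71.4 in CV buds, and ran from 43.7 to 597 units (median 135.5) and from 10.1 to 27.2 units (median 13.1) at the FG site. LE was at least 6.16-fold higher than CV (adjusted p = 0.00206) and at least 5.17-fold higher than FG buds (adjusted p = 0.000466). SLC45A2, a carrier of melanosomes, was also lower in taste buds, with 5745, 8057, 5433 and 5210 units in LE beside CV papillae and 540.1, 2076, 1457 and 1602 in CV buds (log2 change -2.24 ± 0.49, adjusted p = 0.00286), and with 4.82-fold lower levels in FG buds (adjusted p = 0.000601). Another, dimmer probe set of SLC45A2 was not called in CV buds (log2 change -0.46, adjusted p = 0.166) and was lower in FG buds (adjusted p = 0.00166). Of 5 melanocyte markers, TYR, TYRP1, DCT and PMEL had group means under 14 units throughout, and MLANA was higher in taste buds. Their part in the level of SLC45A2 was not tested.

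Among carboxylate, bile acid and fatty acid carriers, SLC27A4, a fatty acid carrier and acyl-CoA synthetase of the epidermis, fell in both kinds of taste bud. LE beside CV papillae had 416, 226, 251 and 154 units and CV buds 11.2, 20.8, 30.6 and 29.7. The log2 change was -3.52 ± 0.46 (adjusted p = 5.51e-05) and in FG buds -2.73 ± 0.37 (adjusted p = 7.72e-05). The acetyl-CoA carrier of the endoplasmic reticulum, SLC33A1, rose 5.31-fold in CV buds (adjusted p = 0.0218, lost without animal 1, 4 or 5) and 4.12-fold in FG buds (adjusted p = 0.016, lost without animal 1). SLC10A4, an orphan carrier of synaptic vesicles, had 12.7, 5.34, 6.48 and 8.44 units in CV buds and 21.8, 55.0, 62.8 and 94.0 in their LE. It met the 25-unit rule through LE samples alone, so these values are a description and its test is not given. Of the monocarboxylate carriers, of which SLC16A1 and SLC16A3 carry lactate and were picked here after their values were seen together with SLC16A11, SLC16A1 fell in FG buds (mean 118 ± 124 against 515 ± 409 units, SD, n = 6 each, adjusted p = 0.0434), SLC16A3 fell in CV buds (61.4 ± 38.6 against 349.9 ± 175, SD, n = 4 each, adjusted p = 0.00318), and SLC16A11 rose in both (adjusted p = 0.000196 and 0.00314).

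Zinc carriers of the SLC39 family, which bring zinc into the cytosol, included SLC39A8 and SLC39A6, both called in both kinds of taste bud. SLC39A8 had 549, 111, 173 and 394 units in CV buds against 4.49, 30.3, 31.6 and 9.02 in LE, and FG buds ran from 236 to 1021 units (median 502) and LE from 5.54 to 35.2 units (median 7.31). It rose at least 9.12-fold in CV (log2 change 4.18 ± 0.71, adjusted p = 0.00046) and at least 19.4-fold in FG buds (log2 change 5.71 ± 0.58, adjusted p = 4.46e-06). A dim second probe set of SLC39A8, at group means of 13.6 to 30.8 units, was called lower in both kinds of taste bud (log2 changes -1.02 and -0.94). SLC39A6 had 847, 1030, 796 and 1026 units in CV buds against 33.1, 154, 146 and 103 in LE (adjusted p = 8.49e-05), and 7.73-fold higher levels in FG buds (adjusted p = 3.4e-05). Of 12 tested zinc carriers, 4 were higher and 0 lower in CV buds, and 2 were higher and 2 lower in FG buds. SLC30A10, 1 of the 4 in CV buds, reached 25 units in taste buds alone, so its call is a description. Over all probe sets, 17.3% were called higher and 18.0% lower in CV, and 21.1% and 20.2% in FG buds. SLC30A9, of the efflux family, did not pass the test in either (log2 changes -0.03 ± 0.26 and 0.43 ± 0.21).

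Of the other metal carriers, SLC31A2, a copper carrier of lysosomes, was lower in taste buds: LE beside CV papillae had 4309, 1999, 1935 and 1987 units and CV buds 672, 146, 210.1 and 463 (adjusted p = 0.000782). The call in FG buds (adjusted p = 0.0228) was lost without animal 1, 3 or 5. SLC31A1, the copper uptake carrier, was not called (adjusted p = 0.274 in CV and 1.0 in FG buds). That holds for the brightest probe set of SLC31A1. Another was lower in CV buds (log2 change -2.23, adjusted p = 0.0383) and not called in FG buds (-1.54, adjusted p = 0.0661). A further one was lower in FG buds (-2.19, adjusted p = 0.01) and not called in CV buds (-0.70, adjusted p = 0.482). The iron exporter SLC40A1 rose in both, from 9.14 ± 1.88 to 86.0 ± 41.0 units in CV buds (SD, n = 4 each, adjusted p = 0.00279).

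The phosphate carriers SLC20A1 and SLC20A2, sodium-coupled carriers with the same substrate, went opposite ways in FG buds. SLC20A2 had 685.5, 989, 689 and 817 units in LE beside CV papillae and 47.9, 202, 65.6 and 70.9 in CV buds. At the FG site LE ran from 135 to 700.1 units (median 470.3) and taste buds from 40.1 to 224 units (median 71.7). It was 9.60-fold lower in CV (adjusted p = 8.63e-05) and 5.36-fold lower in FG buds (adjusted p = 0.00018). SLC20A1 was higher in FG buds, which ran from 1232 to 1625 units (median 1437) and LE from 52.5 to 886 units (median 523) (adjusted p = 0.0114, and 0.0515 without animal 5), and was not called in CV buds (log2 change 0.99 ± 0.77, adjusted p = 0.337).

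Among organic ion and peptide carriers, SLC22A17, a receptor for lipocalin-bound iron, rose with little spread: CV buds had 656.5, 709, 721 and 720.4 units and their LE 33.1, 22.2, 80.1 and 52.3. FG buds ran from 348 to 825 units (median 593) and their LE from 40.9 to 131 units (median 101). The log2 change was 4.07 ± 0.40 in CV (adjusted p = 4.43e-06) and 2.83 ± 0.32 in FG buds (adjusted p = 1.41e-05). The lysosomal peptide and histidine carrier SLC15A4 was not called (log2 changes 0.41 ± 0.35 and 0.30 ± 0.28).

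Choline-like carriers of the SLC44 family were divided. SLC44A4, which carries thiamine pyrophosphate and choline, had 137, 351, 388 and 369 units in CV buds against 29.5, 19.4, 14.4 and 13.2 in LE, and FG buds ran from 253 to 706 units (median 493) and LE from 17.0 to 67.8 units (median 20.8). It rose at least 11.1-fold in CV (adjusted p = 8.62e-06) and at least 15.3-fold in FG buds (adjusted p = 5.64e-07). SLC44A2 was lower in CV buds (log2 change -1.10 ± 0.31, adjusted p = 0.0149, lost without animal 3 or 4), and SLC44A3 was lower in FG buds (log2 change -2.18 ± 0.66, adjusted p = 0.0168, lost without animal 3 or 6).

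Nucleotide sugar carriers bring sugar donors into the Golgi and endoplasmic reticulum, and the family also holds orphans such as the SLC35F genes. SLC35F5 fell: LE beside CV papillae had 1070, 414, 965 and 1262 units and CV buds 65.5, 63.7, 111 and 124 (adjusted p = 0.000444), and it was lower in FG buds (log2 change -2.91 ± 0.45, adjusted p = 0.000231). Its relative SLC35F1, named from the study's list, had 3904, 5300, 3893 and 1871 units in CV buds, ran from 1291 to 3433 units (median 2333) in FG buds, and stayed between 4.26 and 12.9 units in all 10 LE samples. As a description, CV buds exceeded LE at least 140-fold and FG buds did so at least 84.8-fold. The cytidine monophosphate sialic acid carrier SLC35A1 was not called in either (log2 changes 0.94 ± 0.50 and 0.36 ± 0.41). Among nucleoside carriers SLC29A3, the lysosomal one, fell 3.08-fold in CV (adjusted p = 0.0113, lost without animal 1) and 2.39-fold in FG buds (adjusted p = 0.0133, lost without animal 4).

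Mitochondrial carriers of the SLC25 family were the largest group, with 24 tested members: 4 rose and 3 fell in CV buds, and 5 rose and 5 fell in FG buds. Of all probe sets, 17.3% were called higher and 18.0% lower in CV, and 21.1% and 20.2% in FG buds. SLC25A17, which is in fact a carrier of peroxisomes, had 69.9, 1151, 782 and 357 units in LE beside CV papillae and 6.95, 11.4, 15.1 and 7.34 in CV buds, and at the FG site ran from 119 to 1090 units (median 225) in LE and from 6.41 to 45.1 units (median 7.21) in taste buds. LE was at least 15.5-fold higher than CV (adjusted p = 1.16e-05) and at least 10.5-fold higher than FG buds (adjusted p = 3.79e-06). SLC25A21, the oxoadipate carrier, fell in both kinds of taste bud (log2 changes -3.55 ± 0.67 and -3.29 ± 0.55, adjusted p = 0.00106 and 0.000398). SLC25A38, the glycine carrier needed for heme synthesis, rose at least 6.12-fold and at least 5.89-fold (adjusted p = 0.00246 and 0.000325). SLC25A27, an uncoupling protein of neurons, rose at least 5.52-fold in CV buds (adjusted p = 0.000517) and was not called in FG buds (log2 change 0.94 ± 0.48, adjusted p = 0.129). The ATP-magnesium carrier SLC25A25 was lower in FG buds by a log2 change of -0.66 ± 0.24 (adjusted p = 0.0379), lost without any of animals 2 to 6 (adjusted p up to 0.111). Another of its probe sets was higher in FG buds (log2 change 1.49, adjusted p = 0.0333).

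SLC25A18, a mitochondrial glutamate carrier, reached 25 units in FG buds alone. It had 67.8, 72.0, 164 and 180 units in FG buds of animals 1, 4, 5 and 6, and 19.0 and 8.46 in animals 2 and 3, and lay under 25 units in each of the other 22 samples. It met the 25-unit rule through these 4 samples alone, so the values are a description and no test is given. The same holds for its place among the 5 mitochondrial carriers counted above as higher in FG buds.

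In each of these comparisons with LE, other cells moved as well. The 10 keratinocyte markers summed to 872 to 4030 units in CV and 696 to 18800 in FG buds, and to 76100 to 101000 in LE. Of 5 leukocyte markers, 4 were lower in CV buds and 2 in FG buds than in LE, with sums of 227 to 1360 units in CV and 605 to 2710 in FG buds, and 5440 to 6300 in LE beside CV and 1840 to 3610 beside FG papillae. Of 3 tested endothelial markers 1 was higher in both kinds of taste bud, the tight junction gene CLDN5 (log2 changes 4.63 and 4.49, adjusted p = 7.61e-07 and 8.68e-08). The 6 endothelial markers summed to 524 to 1790 units in CV buds against 137 to 374 in their LE, and to 682 to 1410 in FG buds against 81.1 to 1300. The 3 muscle markers summed to 69.3 to 1310 units in FG buds and 77.5 to 4580 in their LE. At the CV site they summed to 42.5 to 77.0 in taste buds and 57.1 to 100 in LE, and 0 were called against LE. The part of these cells in the carriers' differences was not tested.

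**Figure D3:**
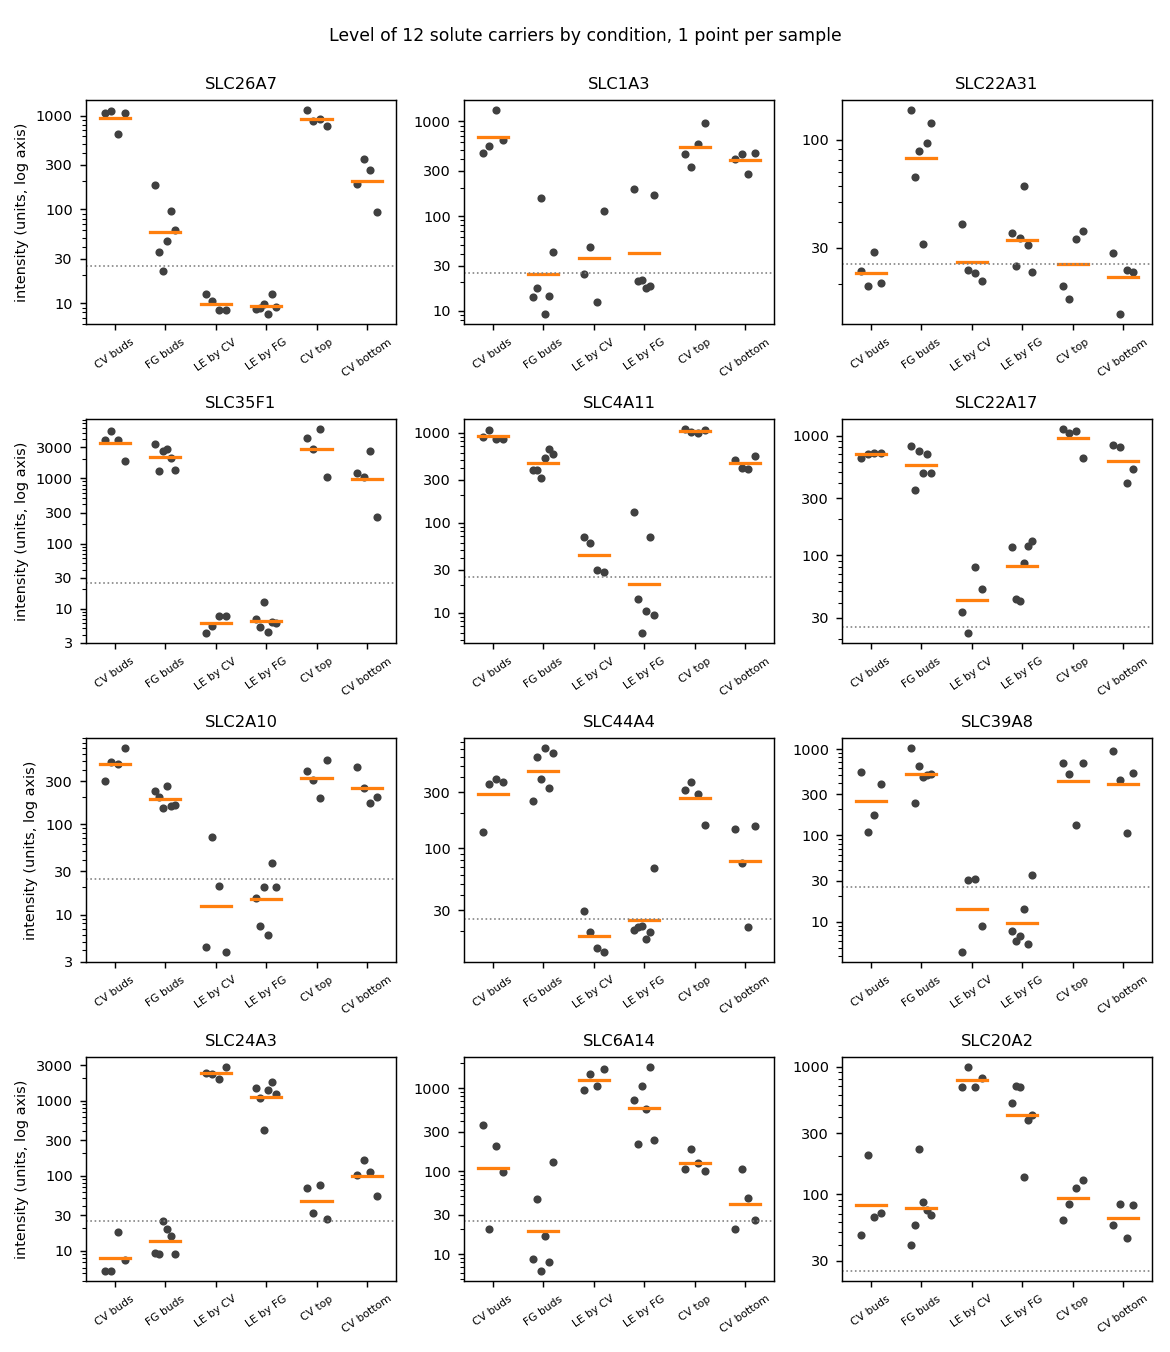
Level of 12 members by condition on a log axis, 1 point per sample, with the geometric mean of each group as a bar and 25 units as a dotted line. SLC26A7 and SLC1A3 are high in CV buds and both fractions and low in most FG taste bud samples, SLC22A31 is highest in FG buds, and SLC24A3, SLC6A14 and SLC20A2 are highest in LE.

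Between CV and FG buds few carriers differed. Of 196 tested members, 2 were higher in CV and 1 was higher in FG buds, or 1.02% and 0.510%, where 0.378% and 0.493% of all 26176 probe sets were called. SLC26A7 had 1065, 1114, 630.3 and 1059 units in CV buds and 182, 34.9, 22.1, 45.9, 96.1 and 59.7 in FG buds of animals 1 to 6. The lowest CV value was above the highest FG value, and all 10 LE samples lay between 7.67 and 12.7 units. The level was higher in CV buds (log2 change 3.93 ± 0.42, adjusted p = 0.000374, higher in 4 of 4 animals), and the call held when any 1 of the 6 animals was left out (adjusted p up to 0.0147). Since SLC26A7 is named through the study's list, which was selected on taste buds against LE, the probe set was known to be high in taste buds.

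SLC1A3 had 464, 547, 1307 and 637 units in CV buds. In FG buds of animals 1 to 6 it had 14.0, 17.5, 157, 9.22, 14.3 and 42.2, so that only animals 3 and 6 passed 25 units, and its LE samples ran from 12.5 to 193. The level was higher in CV buds (log2 change 4.96 ± 0.89, adjusted p = 0.0172), a call lost without animal 4 or 5 (adjusted p up to 0.159). SLC22A31, an orphan of the organic ion family, was higher in FG buds: these ran from 31.4 to 138.5 units (median 92.5), and CV buds had 23.3, 19.6, 28.6 and 20.2 (log2 change -1.93 ± 0.41, adjusted p = 0.0396). That call was lost without animal 1, 2, 3, 5 or 6 (adjusted p up to 0.228).

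Some members had groups that did not overlap between the papillae and still missed the threshold. SLC4A11 ran from 842 to 1059 units in CV and from 314 to 659 in FG buds, and the difference was not called (log2 change 0.79 ± 0.68, adjusted p = 0.748). SLC2A10 lay between 298 and 695.5 units in CV and between 153 and 267 in FG buds (log2 change 1.20 ± 0.73, adjusted p = 0.587). SLC20A1 and SLC6A6 were on the other side, with CV buds below all FG samples (log2 changes -1.02 ± 0.74 and -1.35 ± 1.01, adjusted p = 0.676 and 0.686). These 4 were singled out after their values were seen. In all, 10 of 196 members (5.1%) did not overlap between CV and FG buds, beside 4.57% of all 26176 probe sets, so that the count is no result about carriers.

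LE beside CV papillae was also set against LE beside FG papillae. SLC35A3, the carrier of UDP-N-acetylglucosamine, was the 1 member of 196 called higher in LE beside CV papillae (0.510% of members, 0.970% of probe sets), and 0 were called lower (0.294% of probe sets), with 29 members at an unadjusted p under 0.05 in limma. It had 195, 345, 223 and 397 units beside CV papillae and ran from 35.6 to 202 units (median 76.3) beside FG papillae (log2 change 2.18 ± 0.41, adjusted p = 0.0218). The groups overlapped through animal 2, which has no LE beside CV papillae, and the call was lost without animal 1, 3, 4 or 5 (adjusted p up to 0.124). SLC24A3 did not overlap between the sites but was not called (adjusted p = 0.314).

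The interaction asks whether the difference between taste buds and adjacent LE was itself of another size in CV than in FG papillae. Of 174 tested members 0 were called in either direction by limma, with 17 at an unadjusted p under 0.05, where 0.271% and 0.600% of all probe sets were called. SLC1A3, called in CV buds alone, had an adjusted p of 0.0684 in this test, and SLC25A27 one of 0.137. SLC20A1 and SLC6A6, called in FG buds alone, had 0.59 and 0.703. For none of these was the difference between taste buds and LE shown to differ between the sites.

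Within CV buds, 5 of 162 tested members were higher in the top fraction and 1 was higher in the bottom fraction, or 3.09% and 0.617%, where 1.68% and 1.46% of the 21167 probe sets tested were called. The remaining 40 members were not fitted because fewer than 4 of the 8 fraction samples reached 25 units. SLC12A8 had 3801, 3294, 2795 and 2672 units at the top and 505, 933, 461 and 859.6 at the bottom in animals 7 to 10, without overlap (log2 change 2.24 ± 0.31, adjusted p = 0.0304). Another, dimmer probe set of SLC12A8 averaged 502 units at the top and 424 at the bottom and was not called (log2 change 0.30, adjusted p = 0.637). SLC26A7 had 1135, 869.9, 909.6 and 780.1 at the top and 187, 346.5, 264.5 and 93.8 at the bottom (log2 change 2.19 ± 0.36, adjusted p = 0.0377). The urate carrier SLC2A9 had 199.5, 134, 84.0 and 107 against 23.5, 38.0, 17.1 and 48.4 (adjusted p = 0.0418), and SLC6A17 had 236.5, 249.7, 202 and 186 against 64.1, 105, 58.9 and 49.5 (adjusted p = 0.0335).

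The fractions overlapped for SLC35F1, with 4114, 2838, 5671 and 1043 units at the top and 1221, 1072, 2646 and 253 at the bottom, yet each of the 4 animals had more at the top (log2 change 1.58 ± 0.27, adjusted p = 0.0414). The exception in direction was SLC27A3, an acyl-CoA synthetase of the fatty acid carrier family, with 18.2, 16.8, 42.4 and 9.53 units at the top and 71.0, 102, 162 and 40.7 at the bottom (log2 change -2.15 ± 0.26, adjusted p = 0.0236). SLC27A3 reached 25 units in 1 top sample and in all 4 bottom samples, so it met the filter of the fit largely through the bottom fraction. Its whole taste bud values were low, 9.06 to 38.3 units in CV. All 6 calls were near the threshold, and each was lost in every fit that left out 1 animal, with adjusted p up to 0.174 (SLC27A3 could not be fitted without animal 9). SLC26A7, SLC2A9 and SLC35F1 carry names from the study's list, whose criteria included each fraction against LE.

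Close to the threshold but not called, SLC6A14 was higher at the top in 4 of 4 animals (adjusted p = 0.054), as was SLC4A11, with 1085, 1015, 986 and 1077 units at the top and 501, 407, 389 and 544 at the bottom (adjusted p = 0.0556). Cell types differed between the fractions too. Of 5 tested fibroblast markers 4 were lower at the top, with 6 markers summing to 627 to 1800 units at the top and 4550 to 6120 at the bottom, and of 10 taste cell markers 2 were higher at the top, with sums of 21500 to 25300 and 11400 to 14800. The 10 keratinocyte markers summed to 701 to 2270 units at the top and 2590 to 7320 at the bottom, and the 6 tested ones were not called (limma, adjusted p from 0.0532 to 0.779). Of 5 leukocyte markers 1, the lysozyme gene LYZ, was higher at the top (log2 change 2.24, adjusted p = 0.0418). The part of these cells in the carriers' differences was not tested.

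**Figure D4:**
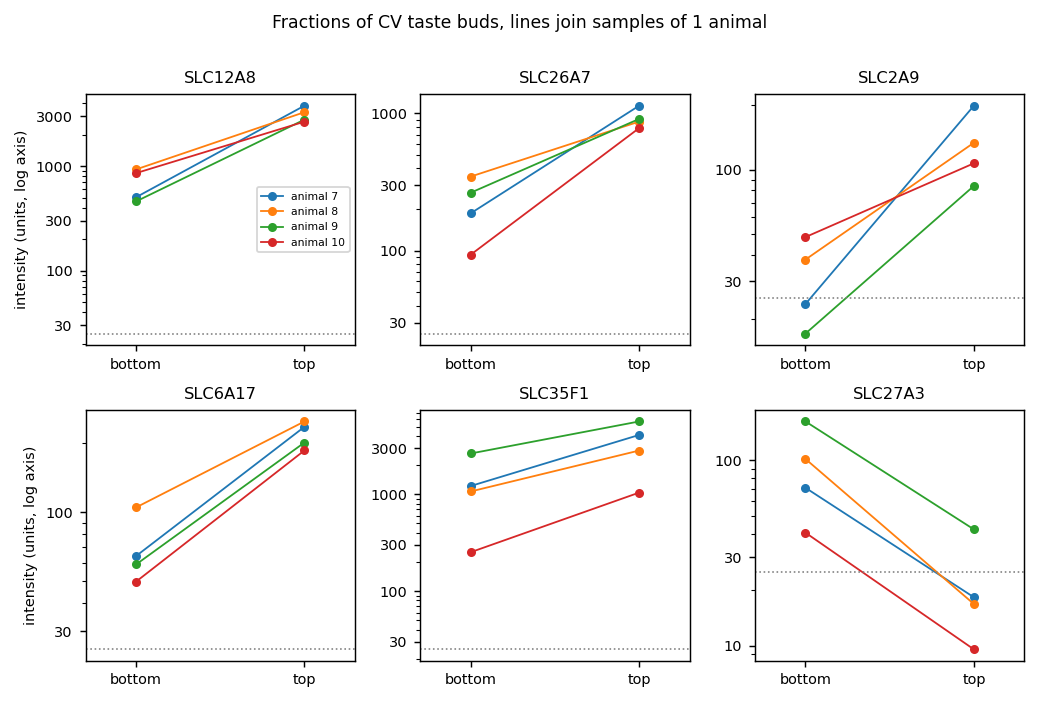
Level of the 6 members called between the top and bottom fractions of CV buds on a log axis, with a line for each of animals 7 to 10 and 25 units as a dotted line. The lines rise from bottom to top in all 4 animals for 5 members and fall in all 4 for SLC27A3.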

How the data were processed

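Taste buds and LE were captured by laser from macaque tongue sections, and RNA was amplified and hybridised to 28 rhesus macaque expression arrays with 52024 probe sets. The authors deposited linear intensity values made with GC-RMA over all 28 arrays together, in GeneSpring GX, with no version given in the sources used here. Such values have no count or depth, and the number of arrays limits precision.

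Intensities were taken to log2 and fitted with limma 3.58.1 in R 4.3.3: a model of 4 groups over 20 samples, and a separate one for the 8 fraction samples, each with the animal as a fixed block. Probe sets with 25 units in at least 4 samples of the fit were tested, and p-values were adjusted over all of them (Benjamini-Hochberg). The fit was tested on simulated data. The pairing comes from the labels, which give samples of 1 animal the same number; deviations from group means correlated at a mean r of 0.05 to 0.12 between samples of the same animal and -0.04 to -0.01 between different animals. Fractions came from other animals and another array set, so their levels stand beside those of whole taste buds without a test.

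Names came from the study's list of taste bud genes where it gives one, otherwise from the platform annotation. With values, 51 members were named: in each comparison up to 10 per direction with the largest log2 change among those called and alike in sign in every animal, the brightest of each role class, and those in the study's text. Members named outside this rule, such as SLC16A1, SLC16A3, SLC16A11 and SLC40A1, were chosen after their values were seen. Members, gene lists and role classes were chosen with earlier results of these data known. Alternatives covered low values, scaling, the filter, the block, the fold threshold, the methods' test, the LE group, names, other probe sets and each animal left out. No sequences are shown, and a few genes are not reported here.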

Additional observations from a re-analysis of the deposited data

Results flagged for a closer look

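Among 149 groups of 4 to 6 samples of the named members, 13 held a sample whose gap to the nearest other sample was large for the range of the group, where chance gives about 1 in 20. In taste buds, SLC12A8 in FG buds of animal 1 had 3588 units against 1706 to 1948 in the others. SLC6A17 in FG buds of animal 1 had 281.5 against 95.8 to 142. CV buds of animal 1 were low for SLC22A17, with 656.5 against 709 to 721, for SLC44A3, with 83.5 against 324 to 421, and for SLC44A4, with 137 against 351 to 388. SLC26A7 in CV buds of animal 4 had 630.3 against 1059 to 1114. In the top fraction, SLC22A17 of animal 10 had 646 against 1056 to 1132.

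In LE, SLC31A2 beside CV papillae of animal 1 had 4309 units against 1935 to 1999. Beside FG papillae, SLC31A2 of animal 6 had 464 against 1607 to 2467. SLC20A2 of animal 4 had 135 against 382.5 to 700.1, and SLC24A3 of animal 3 had 411 against 1094 to 1808. SLC44A3 of animal 5 had 119.5 against 555 to 818, and SLC45A2 of the same animal had 1717 against 5120 to 9790.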

How the results depend on the processing

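Counts of members called against LE moved by less than 1.5 times with values raised to 25 units, arrays centred on their medians, no filter, no replicate block (35 higher and 27 lower in CV, 41 and 40 in FG buds), all LE samples as 1 group and annotation names alone. Leaving out each animal gave 28 to 34 higher and 16 to 27 lower in CV buds (16 without animal 3 or 4), and 29 to 38 higher and 19 to 38 lower in FG buds (25 without animal 3, 19 without animal 4). With a fold of at least 5 in addition, 22 were higher and 12 lower in CV and 17 and 10 in FG buds. The methods' t-test at its unadjusted threshold with the same fold gave 20 and 12 in CV and 17 and 10 in FG buds, and after Benjamini-Hochberg 5 and 8 in CV and 23 and 23 in FG buds. Between CV and FG buds, leaving out animals gave 1 to 2 higher and 0 to 1 lower, no replicate block gave 3 lower, the fold gave 0 lower, and the methods' t-test gave 4 higher and 0 lower, or 0 and 0 after Benjamini-Hochberg. Between the kinds of LE, leaving out animals gave 0 to 1 higher, no replicate block 0 higher and 1 lower, values raised to 25 gave 1 lower, the fold 0 higher, and the methods' t-test 2 higher, or 0 after Benjamini-Hochberg. The interaction gave 1 higher with values raised to 25 or with no replicate block. Between fractions, leaving out any animal, the fold and the methods' t-test with and without Benjamini-Hochberg gave 0 higher and 0 lower, no filter gave 0 higher, and values raised to 25 or no replicate block gave 0 lower.

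Among the members named by the rule, another probe set of the gene reversed the sign of the log2 change for SLC25A25 in FG (1.49), SLC33A1 in CV (-0.93), SLC39A8 in CV (-1.02) and FG (-0.94), SLC44A2 in CV (0.82) and FG (1.21), SLC4A7 in CV (-1.86) and FG (-1.14), and SLC6A6 in FG buds (-0.20). The list is not complete. Where no call was made, the sign also turned for SLC6A6 (-0.86) and SLC15A4 (-0.05) in CV buds. It turned as well for SLC7A5, described without a test, in CV (-0.33) and FG buds (-0.68). The cause was not tested in any of these cases. Values near 25 units limit what can be said of dim members.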
